A study of Homo sapiens with 12 samples.

Results

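HOX genes were followed through RNA from HEK293T cells, a human line derived from embryonic kidney, and through RNA carried along when a tagged protein was purified from those cells. Members were all genes in the normalized count table whose symbol is HOX, a cluster letter A to D and a number, with no antisense suffix, which gave 39 of 25369 genes. The HOXA cluster had 11 members, HOXB 10, HOXC 9 and HOXD 9. Of these, 35 had normalized counts of 10 and above in 3 or more libraries and were tested among 14627 genes: 11 in HOXA, 9 in HOXB, 8 in HOXC and 7 in HOXD. HOXB1, HOXC12, HOXD1 and HOXD12 did not reach that level.

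HOX genes encode homeodomain transcription factors that give cells their position along the body axis. In human they lie in 4 clusters, HOXA on chromosome 7, HOXB on chromosome 17, HOXC on chromosome 12 and HOXD on chromosome 2, and genes with the same number in different clusters are paralogs. Low-numbered genes are active toward the head and high-numbered genes toward the tail and in the limb, gut and urogenital tract. Polycomb proteins keep the clusters silent and Trithorax proteins keep them active, while PBX, MEIS and PKNOX homeodomain proteins bind DNA together with HOX proteins.

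Plasmids gave the cells either the Halo tag by itself (Control) or the tag joined to residues 196 to 346 of TNIP2, an adaptor that binds ubiquitin chains in NF-kB signalling (TNIP2 fragment). Only this stretch of TNIP2 was expressed, from a plasmid, on top of the cell's own gene. Input is RNA from 100 µl of cell extract and Pulldown is RNA from 90 µl of material purified through the tag, both after removal of ribosomal RNA, so the 4 groups were Control Input, Control Pulldown, TNIP2 Input and TNIP2 Pulldown, with 3 libraries in each. Nothing in the labels says that the libraries of a group came from separate transfections, and the p-values therefore cover the spread among these libraries only, part of which may be technical. Reads recovered from the tables ranged from 3591176 in the shallowest Control Pulldown library to 29531963 in the deepest TNIP2 Pulldown library. One read was worth 1.6 to 2.86 normalized counts in Control Pulldown and 0.510 to 1.23 in the other groups, so low members were measured least precisely in Control Pulldown. TNIP2 itself had 13318 to 193013 normalized counts in the 6 libraries with the fragment and 272 to 1472 in the 6 without it. All 7 markers of the HEK293 line were detected, with a summed level of 5241 to 6416 in the 9 libraries outside TNIP2 Pulldown and 10044 to 12241 in TNIP2 Pulldown, where NEFL made the largest part of the rise. PAX2 was near the floor, with group means of 3 to 4 outside TNIP2 Pulldown and 17 in it. NEFM did not rise, with group means of 240 to 296 outside TNIP2 Pulldown and 152 in it. Of the blood markers CD3E and HBB were at 0 in every library and the 6 markers summed to 18 to 49 outside TNIP2 Pulldown and 32 to 111 in it. KRT5 of the 4 epithelial markers was at 0 throughout, with sums of 79 to 205, and the 7 fibroblast and endothelial markers summed to 46 to 145. CDH1 made the largest part of the epithelial sums, with group means of 85 to 115. The part of these marker levels in the results was not tested.

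Sequence before the start site is shown for members of the same clusters that went in opposite directions in the purified material. The runs are for the 3 called members with the highest change there and the 2 with the lowest. They were taken from the 18 members with exactly 1 entry in the promoter set used here (20 have at least 1). HOXC6 and HOXC8, which changed most, have no entry in that set. Each run is the 250 bases upstream of the start in the GRCh38.p14 assembly, read 5′ to 3′ on the gene's strand, with every CG dinucleotide in capitals.
HOXA7, chr7:27156676-27156925, minus strand: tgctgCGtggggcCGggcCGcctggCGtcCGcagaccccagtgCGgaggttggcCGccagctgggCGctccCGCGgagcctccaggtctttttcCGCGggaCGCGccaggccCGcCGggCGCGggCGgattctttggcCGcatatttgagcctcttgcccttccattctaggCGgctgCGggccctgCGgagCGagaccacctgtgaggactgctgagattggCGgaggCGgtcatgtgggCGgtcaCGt
HOXD11, chr2:176107030-176107279, plus strand: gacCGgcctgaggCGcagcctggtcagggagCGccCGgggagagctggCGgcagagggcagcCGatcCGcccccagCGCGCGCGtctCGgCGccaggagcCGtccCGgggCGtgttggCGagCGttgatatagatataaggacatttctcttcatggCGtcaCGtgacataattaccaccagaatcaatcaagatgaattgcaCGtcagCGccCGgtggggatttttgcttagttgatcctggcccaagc
HOXA4, chr7:27130758-27131007, minus strand: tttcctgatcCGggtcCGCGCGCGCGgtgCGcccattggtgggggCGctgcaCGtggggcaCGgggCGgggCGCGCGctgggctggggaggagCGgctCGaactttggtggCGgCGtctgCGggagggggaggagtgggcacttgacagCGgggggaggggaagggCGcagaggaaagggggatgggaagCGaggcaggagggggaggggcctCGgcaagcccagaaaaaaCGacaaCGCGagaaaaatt
HOXA2, chr7:27102684-27102933, minus strand: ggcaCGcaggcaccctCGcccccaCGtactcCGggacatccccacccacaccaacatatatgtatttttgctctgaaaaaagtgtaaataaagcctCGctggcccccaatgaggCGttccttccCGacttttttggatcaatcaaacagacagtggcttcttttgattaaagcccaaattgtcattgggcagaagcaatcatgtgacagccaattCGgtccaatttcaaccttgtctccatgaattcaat
HOXD4, chr2:176151300-176151549, plus strand: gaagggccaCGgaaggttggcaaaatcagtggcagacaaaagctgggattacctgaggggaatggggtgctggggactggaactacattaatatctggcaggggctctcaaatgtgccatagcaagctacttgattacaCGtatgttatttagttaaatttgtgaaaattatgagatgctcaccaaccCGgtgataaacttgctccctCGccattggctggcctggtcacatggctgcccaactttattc
HOXA7, HOXD11 and HOXA4, which were higher, had 28, 23 and 26 CG dinucleotides, while HOXA2 and HOXD4, which were lower, had 8 and 4. The motif searched was CG, which reads the same on both strands, and the median over all 35116 entries was 11. Counts of 23 or more occurred in 25.8% of all entries and counts of 8 or fewer in 45.9%. HOXD10, with 23, HOXD3 and HOXD13, with 21 each, and HOXA11, with 11, were not called in either direction, and HOXC4 and HOXC5 had 14 each although HOXC4 was called higher and HOXC5 was not called. These counts describe the windows and were not tested against the RNA changes.

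In extract with the tag alone, HOX RNA was led by genes of all clusters but HOXC. FPKM here are reads scaled by gene length and by the library factor of the normalized counts, not by each library's total. Per length, as FPKM in Control Input, HOXA5 had 36.4 ± 1.2 (SD, n = 3), HOXB9 34.9 ± 6.6, HOXD13 32.9 ± 2.2 and HOXA10 23.2 ± 2.0. HOXB9, at 27.8 to 40.9 in single libraries, was within its spread of both HOXA5 and HOXD13, while HOXA5, with 35.3, 37.7 and 36.2, was above HOXD13, with 32.5, 30.9 and 35.3, in every library by a small margin. HOXA10 lay below them. The next were HOXD11 at 16.5 ± 1.0, HOXA6 at 15.7 ± 1.1, HOXB6 at 15.2 ± 1.8 and HOXD10 at 14.1 ± 2.8, which again were within each other's spread. HOXC9 led its cluster at 11.0 ± 1.3 FPKM, in the 12th place of 39. HOXA2, HOXC8 and HOXB5 were the lowest tested members at 0.632 ± 0.10, 0.601 ± 0.29 and 0.432 ± 0.21.

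Summed over all members, HOX RNA per length was 324 ± 21.7 FPKM in Control Input (SD, n = 3), 325 ± 10.4 in Control Pulldown, 358 ± 32.2 in TNIP2 Input and 713 ± 120 in TNIP2 Pulldown. The 3 TNIP2 Pulldown libraries summed to 692, 843 and 605 and the highest of the other 9 to 382, with no overlap. As a ratio the HOXC cluster grew most, from 46.8 ± 2.89 FPKM in Control Pulldown to 153 ± 29.1 in TNIP2 Pulldown, while HOXA gained most FPKM, from 109 ± 2.85 to 282 ± 46.4. The HOXC share of all HOX FPKM was 15.1%, 14.5% and 13.6% in the Control Pulldown libraries and 20.1%, 22.1% and 22.0% in TNIP2 Pulldown. HOXA went from 33.5 ± 0.22% to 39.5 ± 0.81%, while HOXB went from 30.2 ± 1.56% to 22.2 ± 0.20% and HOXD from 21.9 ± 2.01% to 16.9 ± 0.21%. For each of the 4 clusters the shares of the 3 TNIP2 Pulldown libraries did not overlap those of the other 9.

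**Figure D1:**
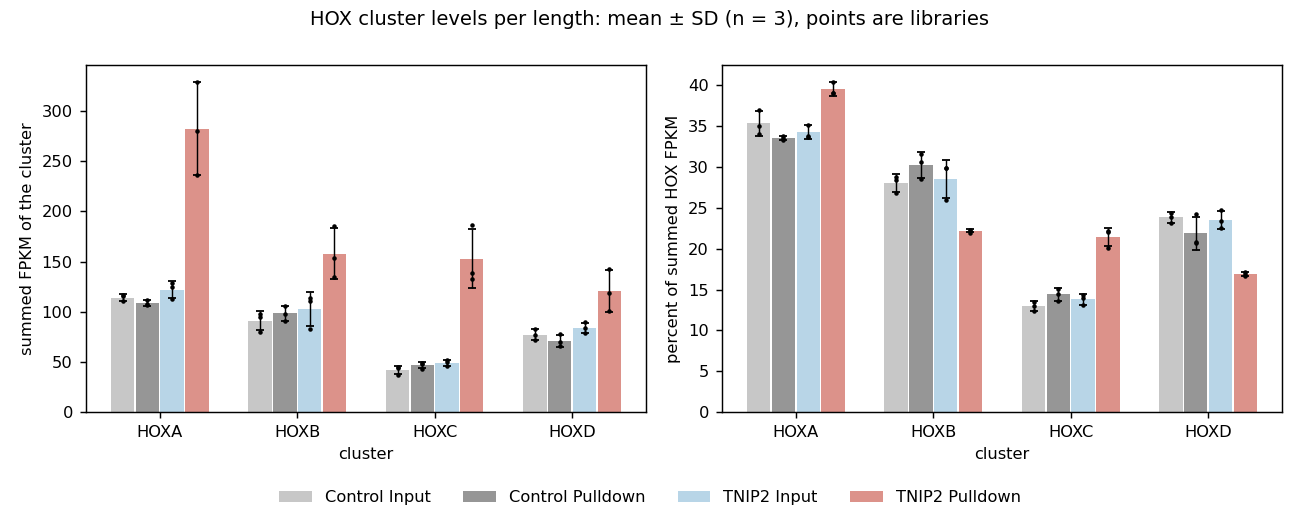
Summed FPKM of the HOX genes of each cluster (left) and each cluster's percent of the summed HOX FPKM (right) in the 4 groups; bars are means, error bars SD over 3 libraries, and points single libraries. In TNIP2 Pulldown the sum of every cluster is above that of the other groups, and HOXC rises from 14.4% to 21.4% of all HOX FPKM against Control Pulldown.

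TNIP2 Pulldown against Control Pulldown asked which RNAs were carried with the TNIP2 fragment beyond those carried with the tag. HOX RNA was mostly higher with the fragment: 23 of 35 tested members were called higher and 4 lower in limma's test (Benjamini-Hochberg adjusted p under 0.05). Over all genes tested, 30.6% were called higher and 28.7% lower. The median log2 fold change was 1.16 over the members and 0.03 over all genes. These changes are in RNA purified through the tag, relative to the other RNAs of a library, and do not measure expression in the cells. In these bulk samples, RNA from fewer cells and less RNA per cell cannot be told apart. The counts moved with the scaling: scaling to total counts gave 18 higher and 5 lower members, and centring on ribosomal protein genes 21 and 5. Of the 14627 genes tested, total count scaling called 2783 higher and 6313 lower, and ribosomal protein centring 2962 and 5344. As a share of the called genes only, those higher went from 51.6% to 30.6% and 35.7%. Of the members, 18 were called higher and 2 lower (HOXA2 and HOXB9) under every one of 24 alternatives that tested them. HOXA2, and HOXA4 among the 18, were tested in only 23, because the stricter filter on low values left them out.

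The HOXC members HOXC6 and HOXC8 had the highest changes of all. HOXC6, a central gene of the thoracic region, had 137, 147 and 114 normalized counts in Control Pulldown and 1042, 1337 and 1136 in TNIP2 Pulldown, which is 3.13 on the log2 scale (SE 0.17, adjusted p = 7.5e-09 in limma). All 3 fragment libraries lay far above the other 9, which ranged from 101 to 147. Per length it moved from 5.20 ± 0.68 to 45.9 ± 5.9 FPKM (SD, n = 3). HOXC8, its neighbour in the cluster, had 14, 11 and 18 normalized counts in Control Pulldown and 134, 290 and 102 in TNIP2 Pulldown, which is 3.40 on the log2 scale (SE 0.40, adjusted p = 4.9e-06 in limma). Those Control Pulldown values rest on 5, 7 and 7 reads, and the second TNIP2 Pulldown library is far above the others, so the size of this change is known less well than that of HOXC6. The remaining called members of the cluster were HOXC9 at 1.68, HOXC13 at 1.48, HOXC10 at 1.17, HOXC4 at 1.08 and HOXC11 at 1.04. HOXC5 had 37, 22 and 5 normalized counts in Control Pulldown and 20, 27 and 12 in TNIP2 Pulldown, and was not called at 0.18 (SE 0.56). HOXC4, HOXC5 and HOXC6 overlap one another in the annotation, so how shared reads were split among them is uncertain. The call of HOXC4 ended under total count scaling (0.62, adjusted p = 0.075 in limma).

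In HOXA, 9 of 11 members were called higher, with a cluster median of 1.61. The run from HOXA3 to HOXA10 was higher without a gap: HOXA3 1.35, HOXA4 1.96, HOXA5 1.61, HOXA6 1.83, HOXA7 2.03, HOXA9 1.93 and HOXA10 1.11 on the log2 scale. HOXA5, a gene of lung and skeletal patterning, had the highest mean FPKM of the members in Control Input. It had 650, 665 and 659 normalized counts in Control Pulldown and 1936, 2381 and 1756 in TNIP2 Pulldown (SE 0.14, adjusted p = 2.8e-07 in limma). HOXA7 had 37, 29 and 35 against 126, 160 and 137. HOXA9, which acts in limb and blood cell development, had 66, 59 and 73 against 266, 296 and 206. In each of these the fragment libraries were separate from all 9 others.
HOXA2, which patterns the second branchial arch, was lower at -1.14 (SE 0.36, adjusted p = 0.013 in limma), with 23, 22 and 13 against 8, 9 and 7. The HOXA2 values are low, 5 to 14 reads in Control Pulldown and 6 to 17 in TNIP2 Pulldown. At the 5′ end, HOXA11 was not called, at 0.28 (SE 0.15, adjusted p = 0.11). HOXA13, a gene of the distal limb, was called by a narrow margin at 0.62 (adjusted p = 0.043), with 295, 301 and 394 against 676, 555 and 337, so its groups overlap. Its call ended without any single Control Input library or without Control Pulldown replicate 1 or 2 or TNIP2 Pulldown replicate 1 or 2, with adjusted p of 0.055 to 0.20 there. It also ended under total count scaling (0.16, adjusted p = 0.57 in limma), under ribosomal protein centring (0.28, adjusted p = 0.24), with no filter (adjusted p = 0.064) and with the compared groups alone (adjusted p = 0.065). The call of HOXA3 ended under total count scaling (0.89, adjusted p = 0.058 in limma).

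HOXB was mixed, with 5 of 9 members called higher, 2 lower and a cluster median of 0.72. HOXB6 rose most, from 295, 354 and 298 normalized counts in Control Pulldown to 993, 1330 and 957 in TNIP2 Pulldown, which is 1.78 on the log2 scale (SE 0.18, adjusted p = 9.3e-07 in limma). HOXB7 at 1.25, HOXB2 at 1.23, HOXB8 at 1.16 and HOXB4 at 0.72 were also called higher. HOXB4 and HOXB8 lost their calls under total count scaling, at adjusted p = 0.25 and 0.065 in limma, and HOXB4 also under ribosomal protein centring, at 0.13.
HOXB9, the second most abundant member in extract, was lower: it had 1042, 1267 and 1068 normalized counts in Control Pulldown and 666, 759 and 542 in TNIP2 Pulldown, which is -0.79 on the log2 scale (SE 0.24, adjusted p = 0.012 in limma). Those 3 libraries were below all 3 Control Pulldown libraries but overlapped the third TNIP2 Input library, which had 719. HOXB13, a posterior gene best known from the prostate, had 338, 362 and 308 against 245, 195 and 267, at -0.52 (SE 0.17, adjusted p = 0.016). Its call ended without Control Pulldown replicate 2 (-0.46, adjusted p = 0.063 in limma), without TNIP2 Pulldown replicate 2 (-0.39, adjusted p = 0.072) and under quantile normalization (-0.39, adjusted p = 0.055). HOXB3 at 0.26 (SE 0.20) and HOXB5 at -0.47 (SE 0.44) were not called.

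HOXD was the cluster in which fewest members were called higher, 2 of 7, with 1 lower and a median of -0.11. Its 28.6% higher is near the 30.6% of all genes tested, of which 28.7% were lower. Its 2 rising members moved as far as those of HOXA. HOXD11, which patterns the forearm and the kidney together with HOXA11, had 221, 234 and 275 normalized counts in Control Pulldown and 970, 1265 and 804 in TNIP2 Pulldown, which is 2.03 on the log2 scale (SE 0.17, adjusted p = 2.3e-07 in limma). HOXD8 had 97, 125 and 119 against 491, 449 and 311, at 1.85 (SE 0.21, adjusted p = 3.5e-06). In both genes the 3 fragment libraries were above all 9 others.
HOXD4 had 52, 72 and 114 against 41, 38 and 39, at -0.92 (SE 0.28, adjusted p = 0.012 in limma), and all 3 fragment libraries were below the other 9. Its call ended without Control Pulldown replicate 3 (-0.63, adjusted p = 0.069). HOXD13, a gene of the digits and the third most abundant member in extract, had 776, 750 and 833 against 603, 727 and 564. These groups did not overlap, and the change of -0.32 (SE 0.14) missed the threshold at adjusted p = 0.059 in limma. It passed without TNIP2 Input replicate 3 (adjusted p = 0.048), without TNIP2 Pulldown replicate 2 (0.018) and under each other scaling (0.00016 to 0.014). HOXD3, HOXD9 and HOXD10 were not called, at -0.23, -0.11 and 0.20.

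**Figure D2:**
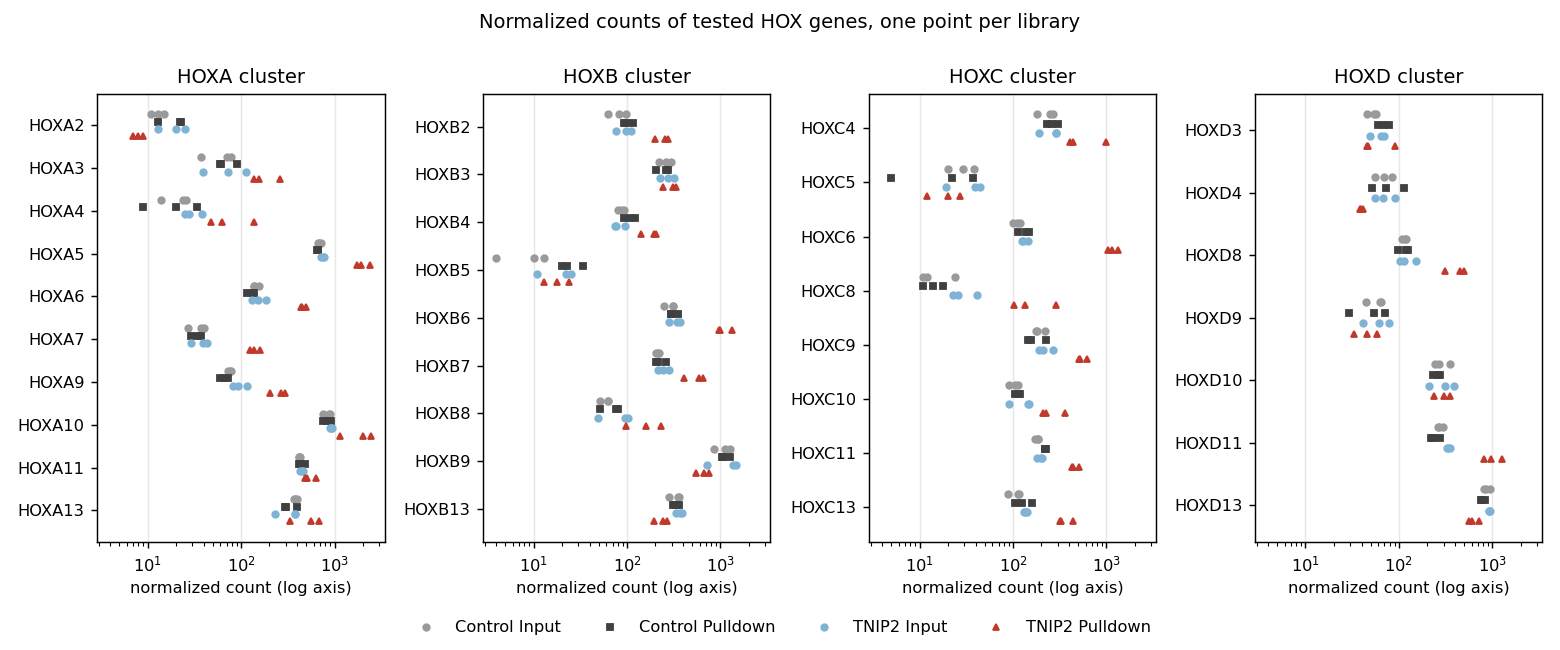
Normalized counts (log axis) of tested HOX genes by cluster, one point per library, coloured by group. TNIP2 Pulldown libraries stand to the right of the other 9 for most HOXA and HOXC genes. So they do for HOXB2, HOXB4, HOXB6, HOXB7, HOXD8 and HOXD11, and they stand to the left for HOXA2, HOXB13, HOXD4 and HOXD13.

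Sorted by paralog number, genes 4 to 8, the central part of the clusters, had 12 of 15 members higher and 1 lower, with a median of 1.61. Genes 9 to 13 had 8 of 14 higher and 2 lower, with a median of 0.83. Genes 1 to 3 had 3 of 6 higher and 1 lower, with a median of 0.74. Of all genes tested, 30.6% were higher and 28.7% lower. Total count scaling ended the higher calls of HOXB4, HOXB8 and HOXC4 among the central genes, and of HOXA3 and HOXA13 among the others. Paralogs did not move as a block. HOXA6, HOXB6 and HOXC6 were all called higher, at 1.83, 1.78 and 3.13, as were HOXA7 and HOXB7, at 2.03 and 1.25, and HOXB8, HOXC8 and HOXD8, at 1.16, 3.40 and 1.85. Among the genes numbered 9, HOXA9 and HOXC9 were higher at 1.93 and 1.68, HOXB9 was lower at -0.79 and HOXD9 was not called at -0.11. The genes numbered 4 were higher in HOXA, HOXB and HOXC, at 1.96, 0.72 and 1.08, and lower in HOXD, at -0.92. The genes numbered 13 were higher in HOXA and HOXC, at 0.62 and 1.48, lower in HOXB, at -0.52, and not called in HOXD, at -0.32. Those numbered 2 had opposite signs, -1.14 for HOXA2 and 1.23 for HOXB2. Differences between clusters or paralog numbers were not tested.

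**Figure D3:**
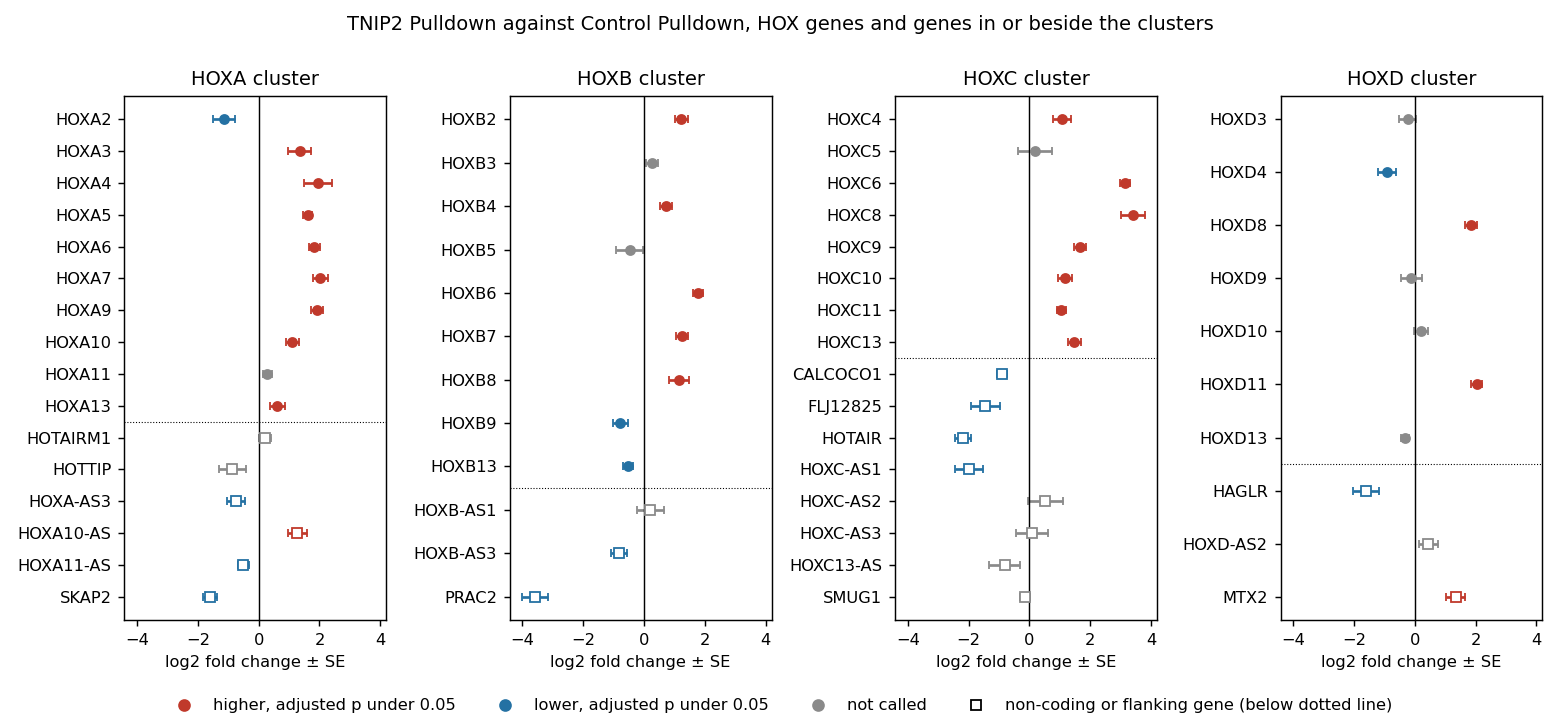
Log2 fold change with its standard error for TNIP2 Pulldown against Control Pulldown, by cluster, with HOX genes by number as filled circles and listed non-coding or flanking genes as open squares below the dotted line; colour marks the call at an adjusted p under 0.05. Filled circles lie mostly to the right of 0 in HOXA and HOXC, and open squares mostly to the left.

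Set against TNIP2 Input, TNIP2 Pulldown showed which RNAs were over-represented in the purified material of the cells that made the fragment. It shares the TNIP2 Pulldown libraries with the comparison above, so its values are given side by side and not as a second test. Here 23 of 35 members were called higher and 5 lower in limma, against 29.8% and 28.3% of all genes, with a median log2 fold change of 1.14 over the members and 0.01 over all genes. These counts moved with the scaling too. Total count scaling gave 20 higher and 5 lower members with a median of 0.71. Ribosomal protein centring gave 17 and 5 with a median of 0.67. Of the 14627 genes tested, these 2 scalings called 2749 higher and 6198 lower, and 2420 and 6049. As a share of the called genes only, those higher went from 51.3% to 30.7% and 28.6%. By cluster, 9 of 11 HOXA, 5 of 9 HOXB, 7 of 8 HOXC and 2 of 7 HOXD members were higher, with medians of 1.31, 0.96, 1.27 and -0.05. HOXC6 again led at 3.12 (SE 0.17, adjusted p = 9.1e-09 in limma), from 144, 126 and 129 normalized counts in TNIP2 Input. HOXC8 had a smaller value here, 2.41 (SE 0.40), and TNIP2 Input held 26, 41 and 23. HOXA7, HOXD8, HOXB6, HOXA6 and HOXD11 followed at 1.91, 1.75, 1.72, 1.57 and 1.55.
The members lower than in TNIP2 Input were HOXA2 at -1.14, HOXD4 at -0.82, HOXB9 at -0.80, HOXB13 at -0.64 and HOXD13 at -0.55. HOXB13 and HOXD13 were called under every one of 25 alternatives. The other 3 rested on TNIP2 Input replicate 2: without it 2 members were called lower in place of 5, with HOXA2 at -0.94 (adjusted p = 0.068 in limma), HOXB9 at -0.61 (0.058) and HOXD4 at -0.64 (0.10). HOXB9 also lost its call without TNIP2 Input replicate 1 (-0.66, adjusted p = 0.053), and HOXD4 without TNIP2 Pulldown replicate 2 (-0.79, adjusted p = 0.056). Calls of HOXA4, HOXA13 and HOXB8, at 1.30, 0.65 and 0.96, ended without TNIP2 Input replicate 3 (adjusted p = 0.065, 0.16 and 0.094) and without TNIP2 Pulldown replicate 2 (0.14, 0.10 and 0.11). HOXA13 and HOXB8 also lost it without TNIP2 Pulldown replicate 1 (0.17 and 0.055), and HOXA4 without TNIP2 Input replicate 1 (0.061). All 3 lost it under total count scaling and under ribosomal protein centring (0.11 to 0.47). HOXA13 also lost it with no filter (0.056), and HOXA13 and HOXB8 with the compared groups alone (0.10 and 0.053). Under ribosomal protein centring the calls of HOXA3, HOXC4 and HOXC10 ended, at 0.89 (adjusted p = 0.063 in limma), 0.68 (0.052) and 0.56 (0.058).

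With the tag alone, HOX RNA in purified material was close to that in extract. Control Pulldown against Control Input called 0 of 35 members in limma, with 1 member, HOXB5, at an unadjusted p under 0.05, and voom on recovered reads also called 0. The median over members was 0.04, and 0.137% of all genes were called, all of them lower. That median was -0.07 without Control Input replicate 1 and 0.155 under ribosomal protein centring, so its sign depended on 1 library. HOXC6 had 111, 101 and 119 normalized counts in Control Input and 137, 147 and 114 in Control Pulldown, which is 0.26 on the log2 scale (SE 0.17). HOXB5, a low gene, had 4, 13 and 10 against 20, 34 and 23, at 1.51 (SE 0.44, adjusted p = 0.71 in limma), from 8 to 17 reads in Control Input and 7 to 21 in Control Pulldown.
TNIP2 Input against Control Input, which asked what the fragment changed in the extract, also called 0 of 35 members in limma and in voom, with 2 at an unadjusted p under 0.05 (HOXB5 and HOXC8). TNIP2 was the sole gene called of all tested, 0.00684%. The median over members was 0.16, and 33 of 35 members had a positive value, against a median of -0.01 and 6921 positive values over all 14627 genes. Part of this rests on 1 library: without Control Input replicate 1 the median over members was 0.075. HOXC8 had 11, 12 and 24 normalized counts in Control Input and 26, 41 and 23 in TNIP2 Input, at 0.93 (SE 0.40), and its groups overlap.

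Subtracting the tag's change between Input and Pulldown from the fragment's tested whether the 2 constructs differ in what the purification carries. In this difference of enrichments 17 of 35 members were called higher and 2 lower in limma, against 22.6% and 20.2% of all genes (42.8% in all), with a median of 0.95 over the members and 0.02 over all genes. The median over the members was 0.36 under ribosomal protein centring and 0.46 under total count scaling. HOXC6 had 2.87 (SE 0.24, adjusted p = 1.7e-06 in limma) and HOXC8 2.47 (SE 0.57, adjusted p = 0.0029). HOXA7 had 1.94, HOXD8 1.77 and HOXD11 and HOXA6 1.73 each. By cluster, 6 of 11 HOXA members were higher and 1 lower, 4 of 9 HOXB higher and 1 lower, 5 of 8 HOXC higher and 2 of 7 HOXD higher. The lower members were HOXA2 at -1.64 (adjusted p = 0.016) and HOXB13 at -0.68 (adjusted p = 0.033).
The split between higher and lower calls depended on scaling. Both ribosomal protein centring and total count scaling gave 11 higher and 6 lower members. Among the called members 64.7% were then higher, in place of 89.5%. Under every one of 24 alternatives 11 members were higher, among them HOXA5, HOXA6, HOXA7, HOXA9, HOXB6, HOXC6, HOXC8, HOXC9, HOXD8 and HOXD11, and no lower call held under all of them. In the cells with the fragment, same-numbered Input and Pulldown libraries deviated together, and with the replicate number as a block within each construct 23 members were higher and 5 lower. The count of lower members was 1 without Control Pulldown replicate 2, TNIP2 Input replicate 1 or TNIP2 Input replicate 2, 3 without TNIP2 Pulldown replicate 2 and 5 without TNIP2 Input replicate 3. HOXB4, HOXB13, HOXB2 and HOXA2 each lost their call without at least 1 single library, with adjusted p of 0.050 to 0.096 in limma.

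**Figure D4:**
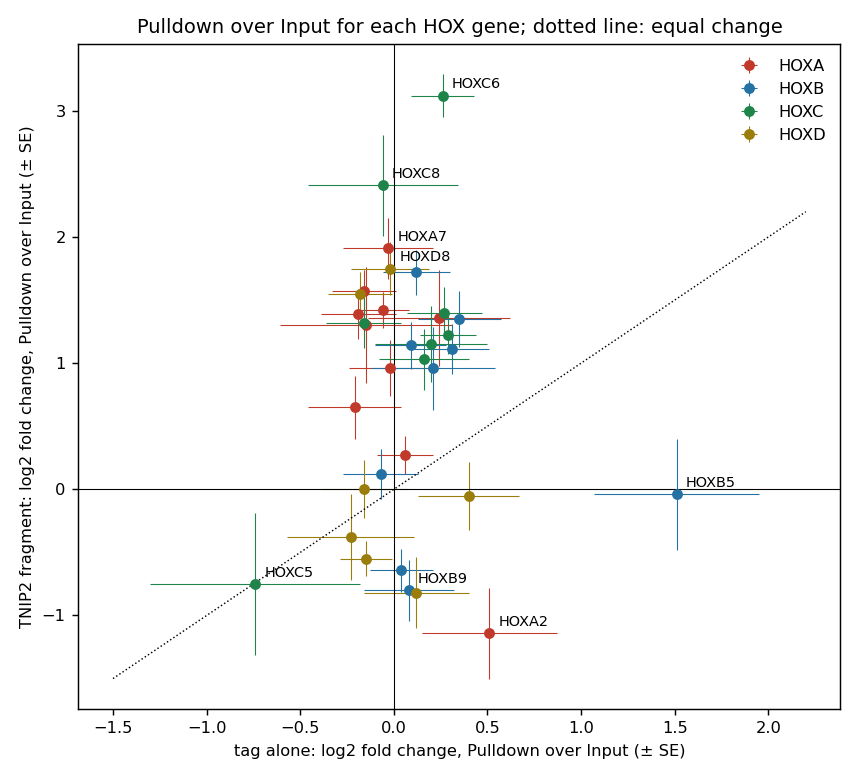
Log2 fold change of Pulldown over Input with its standard error for tested HOX genes, with the tag alone on the horizontal and the TNIP2 fragment on the vertical axis, coloured by cluster; the 2 axes share no library. Many genes stand near 0 on the horizontal and between 1 and 2 on the vertical axis, with HOXC6 at 3.12 and HOXC8 at 2.41.

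Library by library, the members' median log2 level over the mean of Control Input was 1.25, 1.58 and 1.03 in the 3 TNIP2 Pulldown libraries and between -0.17 and 0.30 in the other 9, while that of all tested genes stayed between -0.02 and 0.02 in every library. The median of the HOXD members in TNIP2 Pulldown was -0.17, -0.14 and 0.04, and that of the HOXC members 1.43, 1.94 and 1.33. The second TNIP2 Pulldown library, the deepest, was highest in HOXA, HOXB and HOXC. Leaving out both TNIP2 libraries numbered 3, which deviated together, gave 24 higher and 5 lower members against Control Pulldown and 23 and 5 against TNIP2 Input.

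Abundance and length of called and uncalled members overlapped. The 23 members higher against Control Pulldown had a median of 4.42 FPKM in Control Input, the 4 lower members 7.11 and the 8 uncalled members 4.49, with wide overlap. Their median exonic lengths were 2048, 2254 and 2254 bases, against 3215 for all genes tested. In the RefSeq annotation of GRCh38.p14, 14 tested members overlap no other gene, and of these 7 were higher and 3 lower. Of the 21 tested members that overlap another gene, 16 were higher and 1 lower. Among all genes tested, with or without overlap, 30.6% were higher and 28.7% lower. Whether overlap bears on the calls was not tested. Whether the authors' counting used strand is not given in the sources used here, so how reads were assigned is uncertain for these 21, whether the overlapping gene lies on the same strand, as HOXB3 does for HOXB4, or is antisense.

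Of 31 listed non-coding and neighbouring genes of the clusters, 20 were tested. Against Control Pulldown 2 were higher and 10 lower, with a median of -0.78. Beside this, 30.6% of all genes tested were higher and 28.7% lower, with a median of 0.03. These counts are for the deposited scaling only, and total count scaling put the median of all genes at -0.43. HOTAIR, a long non-coding RNA transcribed from the HOXC cluster opposite HOXC11, had 198, 218 and 212 normalized counts in Control Pulldown and 45, 51 and 40 in TNIP2 Pulldown, which is -2.19 on the log2 scale (SE 0.27, adjusted p = 7.9e-06 in limma). HOXC11 itself was higher at 1.04. In TNIP2 Input HOTAIR had 162, 205 and 81. HAGLR, a non-coding gene of the HOXD cluster, was lower at -1.61 and HOXC-AS1 at -1.98, while HOXA10-AS, which overlaps HOXA10, was higher at 1.28. Of the flanking protein-coding genes, SKAP2 beside HOXA and CALCOCO1 beside HOXC were lower at -1.6 and -0.90, and MTX2 beside HOXD was higher at 1.35. PRAC2, next to HOXB13, had 26, 27 and 20 normalized counts in Control Pulldown and 2, 2 and 0 in TNIP2 Pulldown, from 4 reads or fewer in each of the latter.

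Partners and regulators of HOX genes were given as lists. Of 9 HOX cofactors, 2 were higher and 2 lower against Control Pulldown, which is no larger a share than the 30.6% and 28.7% of all genes: PBX3 rose at 2.11 and PBX4 at 0.79, and PKNOX1 fell at -1.66 and MEIS3 at -1.07. The call of PBX4 ended without Control Pulldown replicate 2 (0.71, adjusted p = 0.060 in limma) and without TNIP2 Pulldown replicate 3 (0.53, adjusted p = 0.074). Under total count scaling the list had 1 higher and 4 lower, and under ribosomal protein centring 1 and 3.
Of 32 Polycomb genes 17 were higher and 4 lower, with a median of 0.49, beside 30.6% and 28.7% of all genes. Under total count scaling the list had 10 and 10, beside 2783 higher and 6313 lower of all genes, and under ribosomal protein centring 10 and 8, beside 2962 and 5344. EZH2, the histone H3 methyltransferase of the complex, had 1163, 1190 and 748 normalized counts in Control Pulldown and 3596, 3679 and 5979 in TNIP2 Pulldown, at 2.08. BCOR, a subunit of a Polycomb complex, was at 2.89, while RING1, a ubiquitin ligase subunit, fell at -1.75.
Of 22 Trithorax genes and HOX activators 15 were higher and 2 lower, with a median of 1.10, beside 30.6% and 28.7% of all genes. The list had 12 and 4 under total count scaling and under ribosomal protein centring alike. All genes had 2783 higher and 6313 lower under the former and 2962 and 5344 under the latter. SETD1A, KMT2D, KMT2C and KMT2A, all histone methyltransferases, were at 3.00, 2.11, 2.08 and 1.49. Of 91 tested homeobox genes outside the clusters 58, or 63.7%, were higher and 7 lower, with a median of 1.05, near the 65.7% and 1.16 of HOX members. Under total count scaling that split was 45 and 16, and under ribosomal protein centring 48 and 13. MNX1 at 2.34, IRX3 at 2.82, LHX8 at 3.13 and ZHX1 at 1.49 had the smallest p.

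The untested members were close to absent. HOXB1, a hindbrain gene, had 1 read in all 12 libraries together, in the third TNIP2 Pulldown library. HOXD12 had 22 reads over 9 libraries, HOXC12 31 over 11 and HOXD1 70 over 10. HOXC12 reached 6, 6 and 13 normalized counts in Control Pulldown and 0, 3 and 1 in TNIP2 Pulldown. A count of 0 reads allows up to 1.53 to 8.59 normalized counts, depending on the library (3 reads, counting error only). With no filter on low counts, HOXC12 was called lower against Control Pulldown, at -2.14 (SE 0.49, adjusted p = 0.003 in limma), and HOXD1, with 0, 3 and 0 against 5, 8 and 5 normalized counts, was called higher, at 2.11 (SE 0.53, adjusted p = 0.0051). HOXD12 was called higher against TNIP2 Input, at 1.72 (SE 0.57, adjusted p = 0.028). These calls rest on very few reads: HOXC12 had 2, 4 and 5 in Control Pulldown and 0, 5 and 1 in TNIP2 Pulldown, HOXD1 had 0, 2 and 0 and then 5, 16 and 4, and HOXD12 went from 2, 0 and 0 in extract with the fragment to 2, 3 and 6 in the purified material.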

How the data were processed

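RNA sequencing gave 12 libraries, 3 in each of 4 groups. Per the submitters' processing notes, the tools were TopHat2 2.0.14 and DESeq2 1.6.3 and the build was hg19. Which program counted reads, with which annotation and strand option, is not given in the sources used here. Normalized counts deposited by the authors are a score: whole numbers that, as inferred from the values, were divided by a library factor and rounded. The authors also deposited FPKM values of the same genes. Columns carry letters, and F, which matches no label word, was taken as the TNIP2 fragment because no other construct was left. In the FPKM table, values were whole multiples of a step per library, so reads were recovered: 100% of 2317 to 3287 low values checked in each library were whole to within 0.1 reads, and 12 of 12 steps were found on simulated data.

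Genes with 10 or more normalized counts in at least 3 libraries were tested as log2(normalized count + 1), which understates changes of low genes, in limma 3.58.1 (R 4.3.3) with a mean per group over all 12 libraries, eBayes with trend, 8 residual degrees of freedom and two-sided p-values adjusted over 14627 genes. For Pulldown against Input with the fragment, the fit recovered 99 of 100 simulated 2-fold and 35 of 100 simulated 1.5-fold changes. Among 14413 genes there were 2 false calls. The simulation gave all genes and groups the same spread and changed few genes, none of them low. Whether these rates hold at the spread of the real libraries was not tested. Named genes are the members, TNIP2 and up to 4 genes per list with the smallest p against Control Pulldown. HAGLR, HOXC-AS1, HOXA10-AS, MTX2, NEFL, NEFM, PAX2 and CDH1 were named after their values were seen. Values of 2 genes that enter the counts are not reported here. The members, lists and tests were chosen with earlier results of these data known. Same-numbered Input and Pulldown libraries deviated together with the fragment (correlations over genes of 0.369, 0.458 and 0.497) but not with the tag (0.0744 to 0.0774); the pairing comes from the data, since the labels give only numbers. Alternatives covered the pseudocount, the filter on low values, FPKM, voom on recovered reads, 3 other scalings, the compared groups alone, replicate blocks and each library left out. Total count scaling and the removal of both TNIP2 libraries numbered 3 were added after seeing the data.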

Additional observations from a re-analysis of the deposited data

Results flagged for a closer look

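The Pulldown-over-Input change differed between the 2 constructs by limma's test of the difference for the following members. HOXC members had differences (fragment minus tag, log2) of 2.87 for HOXC6, 2.47 for HOXC8, 1.48 for HOXC9, 1.13 for HOXC13 and 0.93 for HOXC11. HOXA members had 1.94 for HOXA7, 1.73 for HOXA6, 1.58 for HOXA9, 1.49 for HOXA5, 0.98 for HOXA10 and -1.64 for HOXA2. HOXB members had 1.6 for HOXB6, 1.06 for HOXB7, 0.99 for HOXB2, 0.80 for HOXB4 and -0.68 for HOXB13. HOXD members had 1.77 for HOXD8 and 1.73 for HOXD11. Over all genes 42.8% were called in the same test, so a call by itself does not set a member apart.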

How the results depend on the processing

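The count of called members stayed within 1.5 times its value under every alternative run, from 22 to 28 against TNIP2 Input, from 23 to 29 against Control Pulldown and from 17 to 28 for the difference of enrichments, and was 0 for both other comparisons throughout. No call of a member turned its sign; a sign change between uncalled values was not counted. Ribosomal protein centring and total count scaling put the median log2 fold change of all genes at -0.47 and -0.42 against TNIP2 Input, at -0.30 and -0.43 against Control Pulldown and at -0.57 and -0.47 in the difference of enrichments. Under the replicate block the fit against TNIP2 Input kept 23 higher and 5 lower members; blocking across all groups gave 22 higher and 4 lower in the difference of enrichments, and no other call changed with either block outside that difference. Over all genes, the 20 calls of Control Pulldown against Control Input became 31 under quantile normalization, 48 with the compared groups alone, 42 without both TNIP2 libraries numbered 3, and 12 to 32 with 1 library left out. TNIP2 Input against Control Input went from 1 to 3 without both TNIP2 libraries numbered 3. The cause of these changes was not tested. Depth limits members under about 10 reads in Control Pulldown most, HOXA2, HOXC8 and HOXA4 among them.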
